A study of Mus musculus with 2 samples.

Results

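*Arg1*, *Mrc1*, *Cd86*, *Itgam* and *Cd209a* are 5 of the 479 genes measured by Xenium In Situ, an imaging assay that counts single transcripts in tissue sections and assigns them to segmented cells. They were grouped as genes used to tell myeloid cell states apart, and were described in cells with at most 1 transcript in sum of *Chga*, *Chgb*, *Scg5*, *Snap25* and *Celf3*, 5 neuroendocrine genes of small cell lung cancer (SCLC). Those cells are called NE-low here, and cells with 2 or more such transcripts are called tumor cells. The RPR2 section came from the lung of a C57BL/6 mouse model with *Rb1*, *Trp53* and *Rbl2* deleted. The CRPR2 section came from the same model with *Cracd* deleted as well. In both, tumors were started by adenoviral Cre given into the trachea at 10 weeks of age. The labels do not say how *Cracd* was deleted in the second model. The paper on this model describes a germline knockout of *Cracd*, whereas floxed *Rb1*, *Trp53* and *Rbl2* were deleted conditionally. Both sections were of formalin-fixed, paraffin-embedded tissue. There was 1 section per genotype, so no test of genotype was possible: every difference below is between those sections, and intervals are 95% exact intervals that cover counting error only.

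Cells of 20 or more transcripts were used, 152915 in RPR2 and 340609 in CRPR2. NE-low cells numbered 136510 in RPR2 (89.3%) and 137569 in CRPR2 (40.4%), with a median of 100 and 99 transcripts per cell. Tumor cells numbered 16405 and 203040, with medians of 106 and 102, and had 9143 and 9166 CPM of *Insm1*, a neuroendocrine transcription factor that the limit did not use. Shares of cells were computed after each cell had been thinned at random to 50 transcripts, which left 122019 and 118130 NE-low cells and left out 14491 and 19439 shallower ones. Levels are transcripts of a gene per 1000000 panel transcripts of the same cells (CPM) and were compared between groups of cells for 1 gene at a time, because probes differ in efficiency. The 20 negative control probes averaged 2.75 CPM in RPR2 and 2.29 in CRPR2, and reached 9.93 and 8.43 at most. Of the deleted genes, *Rb1* had 10079 CPM in tumor cells of RPR2 and 11152 in CRPR2, against 3429 and 4054 CPM in NE-low cells, and *Trp53* had 797 and 873 against 1757 and 2032 CPM. Where their probes lie relative to the deleted exons is not given in the sources used here, and *Rbl2* and *Cracd* were not analysed here, so the genotype labels were not checked by these counts. Of the cell barcodes, 8 occurred in both sections, and 0 of them had equal counts.

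Myeloid cells of the lung include resident alveolar and interstitial macrophages, and neutrophils, monocytes and dendritic cells that arrive from blood. *Mrc1* encodes the mannose receptor CD206 and *Arg1* the arginine-degrading enzyme arginase 1, and both are textbook marks of alternatively activated mouse macrophages, whereas *Cd86* encodes a costimulatory ligand for T cells. *Itgam* encodes CD11b, the integrin alpha chain carried by neutrophils, monocytes, many macrophages and natural killer (NK) cells, and *Cd209a* encodes a C-type lectin related to human DC-SIGN, found on dendritic cells and some macrophages. Arginase 1 and the mannose receptor are not limited to macrophages: arginase 1 is also made by hepatocytes, and the mannose receptor by some endothelial cells.

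The bases before the start of transcription are shown for the members in the RefSeq promoter table of GRCm38.p6, because the 5 genes are grouped by their use in myeloid cells and GAGGAA is the core bound by the myeloid transcription factor PU.1. The table held 3 of the 5 members, *Mrc1*, *Itgam* and *Cd209a*. Capitals mark GAGGAA or its reverse complement TTCCTC, and each run has 250 bases read 5′ to 3′ on the strand of the gene. *Mrc1* lies on the plus strand at chr2:14229164-14229413, *Itgam* on the plus strand at chr7:128062390-128062639, and *Cd209a* on the minus strand at chr8:3748985-3749234.
Mrc1: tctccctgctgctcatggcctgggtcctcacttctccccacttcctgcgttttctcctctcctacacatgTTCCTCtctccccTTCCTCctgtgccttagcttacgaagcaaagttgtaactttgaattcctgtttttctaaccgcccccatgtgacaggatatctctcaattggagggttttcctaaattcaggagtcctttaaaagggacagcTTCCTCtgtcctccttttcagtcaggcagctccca
Itgam: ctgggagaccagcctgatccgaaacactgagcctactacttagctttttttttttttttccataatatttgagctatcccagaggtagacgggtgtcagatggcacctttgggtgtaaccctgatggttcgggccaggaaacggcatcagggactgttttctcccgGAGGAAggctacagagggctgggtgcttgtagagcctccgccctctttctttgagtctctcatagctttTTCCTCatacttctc
Cd209a: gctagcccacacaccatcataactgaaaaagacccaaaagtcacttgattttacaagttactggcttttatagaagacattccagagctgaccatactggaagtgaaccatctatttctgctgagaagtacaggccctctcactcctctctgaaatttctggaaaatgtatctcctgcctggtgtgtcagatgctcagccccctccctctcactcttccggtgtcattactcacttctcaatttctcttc
The *Mrc1* run held 3 matches, the *Itgam* run 2 and the *Cd209a* run 0. Of all 32851 promoters in that table, 23.3% held at least 1 match over the same length. A match describes letters only, and binding was not measured.

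*Arg1* stood apart from the other 4 genes in where its transcripts lay. *Arg1* (ENSMUSG00000019987) was lower in NE-low than in tumor cells, at 83.2 against 886 CPM in RPR2 and 250 against 587 CPM in CRPR2, a log2 difference of -3.41 (-3.52 to -3.30) and -1.23 (-1.29 to -1.18). The other 4 were higher in NE-low cells of both sections. *Mrc1* (ENSMUSG00000026712) had 1241 CPM in NE-low and 81.5 in tumor cells of RPR2, and 2460 and 125 CPM in CRPR2. *Cd86* (ENSMUSG00000022901) had 328 and 111 CPM in RPR2, and 840 and 92.5 CPM in CRPR2. *Itgam* (ENSMUSG00000030786) had 460 and 69.1 CPM in RPR2, and 901 and 77.5 CPM in CRPR2. These 3 genes thus lay below their NE-low level in tumor cells, although above the highest control probe. The gap was smallest for *Cd86* in RPR2, at log2 1.57, against a median of 1.01 over the panel genes compared there. *Cd209a* (ENSMUSG00000031494) was the fourth such gene, with 663 and 60.4 CPM in RPR2, and 429 and 47.5 CPM in CRPR2. Of the panel genes compared, 50.4% were at least 2-fold higher in NE-low than in tumor cells of RPR2 and 55.2% in CRPR2, and 24.5% and 18.9% were at least 2-fold lower, so neither direction was rare on this panel.

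Tumor cells, 10.7% of the cells used in RPR2 and 59.6% in CRPR2, held 57.8% and 77.7% of all *Arg1* transcripts. For *Mrc1* that share was 0.836% and 7.01%. After thinning, *Arg1* was seen in 4.42% (4.10 to 4.76) of RPR2 tumor cells and 2.71% (2.64 to 2.78) of CRPR2 tumor cells, so the CRPR2 share was the lower of the pair. Before thinning the shares were 8.72% and 5.56%. The *Arg1* share rose with the number of neuroendocrine transcripts in the cell. In RPR2 it was 0.396% at 0 transcripts, 0.612% at 1, 3.85% at 2 to 4, 4.39% at 5 to 9 and 4.75% at 10 or more. In CRPR2 the same steps gave 0.813%, 1.61%, 2.29%, 2.70% and 3.18%. The step between 1 and 2 neuroendocrine transcripts was thus steep in RPR2 and shallow in CRPR2. The shares of the other 4 genes were lower in every bin of 2 or more than in the bin of 0, in both sections.

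**Figure D1:**
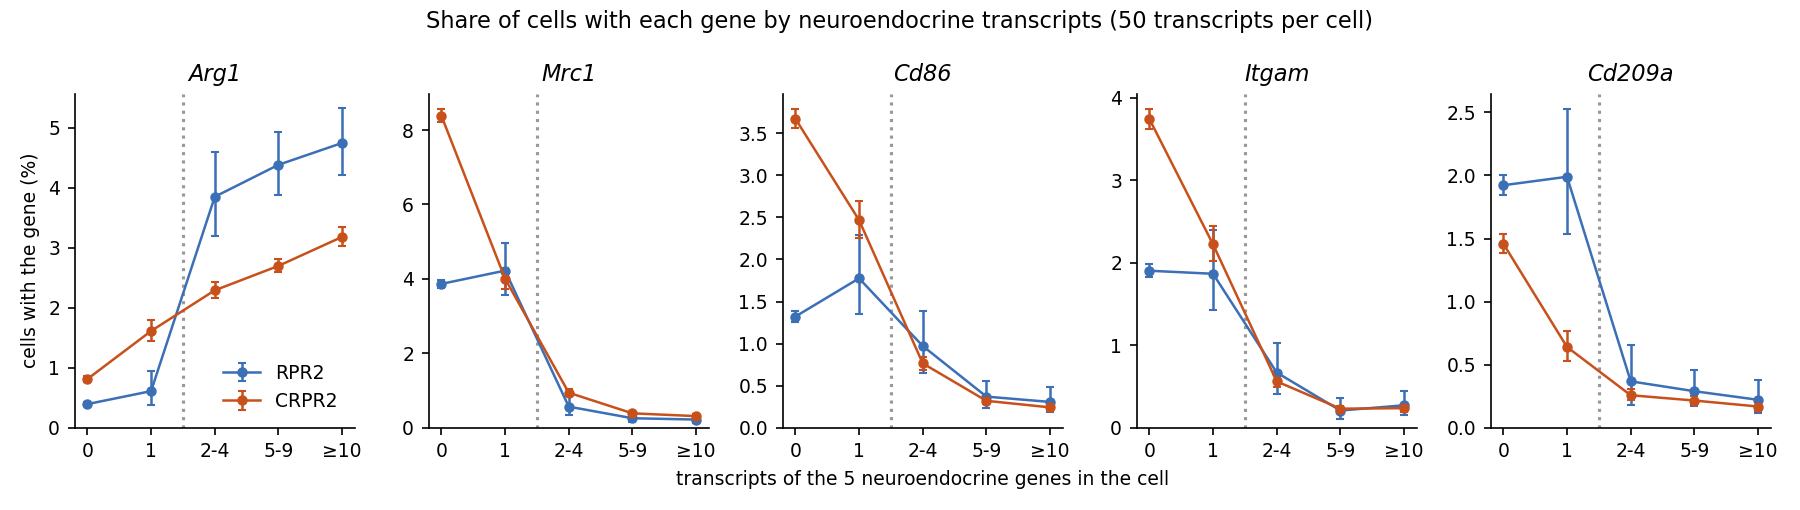
Share of cells with at least 1 transcript of each gene after thinning to 50 transcripts (percent, y axes differ between panels) by the summed transcripts of the 5 neuroendocrine genes in the cell, in RPR2 (blue) and CRPR2 (orange). Points are shares, bars exact 95% intervals, and the dotted line divides NE-low from tumor cells. Arg1 climbs to 4.75% and 3.18% in the last bin, whereas the other 4 genes fall below 0.4% there.

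Macrophage-marker transcripts in the same cells were counted beside the tumor values. The markers were *Cd68*, *Folr2*, *F13a1*, *Ms4a7*, *Marco*, *Krt79* and *Pf4*, of which none is a member. *Cd68* itself had 927 CPM in RPR2 and 876 in CRPR2 tumor cells, against 1165 and 4231 in NE-low cells. In tumor cells with 0 macrophage-marker transcripts, *Arg1* was nearly as high as in tumor cells at large. It had 867 CPM over 14655 RPR2 cells and 562 CPM over 182421 CRPR2 cells. In the same cells *Mrc1* fell to 30.4 and 55.9 CPM and *Itgam* to 26.1 and 30.6 CPM. In the 197 RPR2 and 2209 CRPR2 tumor cells with 3 or more macrophage-marker transcripts, *Mrc1* reached 2331 and 3175 CPM and *Itgam* 1651 and 2013 CPM. *Arg1* was higher in those cells too, at 1845 and 1284 CPM. *Cd86* went from 69.6 and 41.1 CPM in tumor cells with 0 macrophage-marker transcripts to 1327 and 2028 CPM in those with 3 or more, and *Cd209a* from 60.9 and 44.5 to 259 and 128 CPM. With 1 or 2 such transcripts, *Cd209a* had 28.2 CPM in RPR2 and 60.8 in CRPR2, and *Arg1* 893 and 693 CPM. The RPR2 *Cd209a* level at 3 or more rested on 5 of 197 cells. All 5 levels in tumor cells were thus highest at 3 or more macrophage-marker transcripts, without a steady rise for *Cd209a* in RPR2. That of *Arg1* changed little when cells holding such transcripts were left out. *Arg1* and *Itgam* were seen in the same CRPR2 tumor cell 2.17 times (1.52 to 3.00, 36 cells) as often as the product of their shares gives. By the same measure *Arg1* with *Mrc1* stood at 1.35 (0.942 to 1.86), and *Mrc1* with *Itgam* at 18.7 (14.2 to 24.0). In RPR2 tumor cells *Arg1* with *Itgam* stood at 1.38 (0.286 to 4.05) on 3 cells.

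Among NE-low cells, 4 of the 5 genes were seen in a larger share of CRPR2 than of RPR2 cells. *Cd86* was seen in 1.33% (1.27 to 1.40) of RPR2 and 3.48% (3.37 to 3.58) of CRPR2 NE-low cells, a log2 difference of 1.38 (1.30 to 1.47). *Arg1* was seen in 0.402% (0.367 to 0.439) and 0.941% (0.887 to 0.998), a log2 difference of 1.23 (1.07 to 1.39). Both *Arg1* shares were below those of tumor cells in the same section, and the lowest class of 50 or more cells in both sections, ciliated-marker cells, had 15.5 and 30.03 CPM. *Mrc1* was seen in 3.88% (3.77 to 3.99) and 7.69% (7.53 to 7.84), a log2 difference of 0.99 (0.94 to 1.04). *Itgam* was seen in 1.90% (1.83 to 1.98) and 3.50% (3.397 to 3.608), a log2 difference of 0.88 (0.81 to 0.95). *Cd209a* alone among the 5 was seen in a smaller share of CRPR2 cells, at 1.92% (1.85 to 2.00) and 1.33% (1.26 to 1.40), a log2 difference of -0.53 (-0.63 to -0.44). Without thinning the RPR2 and CRPR2 shares were 0.796% and 1.81% for *Arg1*, 6.03% and 11.8% for *Mrc1*, 2.30% and 6.00% for *Cd86*, 3.16% and 6.02% for *Itgam*, and 2.92% and 2.04% for *Cd209a*.

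By NE-low CPM, *Arg1* (log2 1.58) and *Cd86* (1.36) were at least 2-fold higher in CRPR2, and *Mrc1* (0.99), *Itgam* (0.97) and *Cd209a* (-0.63) stayed within 2-fold. Of the 429 panel genes at 20 CPM or more, 25.2% were at least 2-fold higher in CRPR2 and 6.06% at least 2-fold lower, and the median gene differed by 0.26. Ordered from the highest difference, *Arg1* was gene 59, *Cd86* 77, *Mrc1* 109, *Itgam* 112 and *Cd209a* 373 of 429. The rises of single members were thus of a size that many panel genes showed. Neuroendocrine genes that the gate did not use were also higher in CRPR2 NE-low cells, by unequal amounts. *Insm1* went from 114 CPM in RPR2 to 836 CPM in CRPR2, and *Scg3*, a secretory granule protein, from 90.8 to 710.2 CPM. The log2 difference was 3.27 for *Scg2*, 3.30 for *Gria2*, 1.06 for *Stmn1* and 0.20 for *Tubb3*. Their part in the *Arg1* difference was not tested. The limit was also set to 0 transcripts over the 5 gate genes and *Insm1*, *Scg2*, *Scg3* and *Gria2* together. The log2 difference in the *Arg1* share was then 1.005 (0.83 to 1.18), smaller than the 1.23 (1.07 to 1.39) at the main limit and of the same sign.

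Pan-leukocyte and macrophage transcripts also differed between the sections. *Ptprc*, which encodes CD45, was seen in 9.14% of RPR2 and 16.04% of CRPR2 NE-low cells. *Cd68*, a lysosomal protein of macrophages, was seen in 4.26% and 11.99%. *Cd68* was not limited to NE-low cells, being seen in 3.85% and 3.64% of tumor cells. NE-low cells with *Cd68* before thinning were taken as a further set, with 8935 cells in RPR2 and 23062 in CRPR2. After thinning, 58.1% and 61.4% of them still had *Cd68*, and 41.8% and 43.0% had *Ptprc*. Within this set of *Cd68* cells, the *Mrc1* share was 27.5% in RPR2 and 26.3% in CRPR2, a log2 difference of -0.06 (-0.13 to 0.00). The *Cd86* share there was 9.08% and 10.3% (log2 0.19, 0.07 to 0.31) and the *Itgam* share 9.68% and 10.8% (log2 0.16, 0.04 to 0.27). The *Mrc1*, *Cd86* and *Itgam* differences were thus much smaller in *Cd68* cells than in NE-low cells at large. *Arg1* and *Cd209a* did not follow that pattern. The *Arg1* share in *Cd68* cells was 0.504% (0.368 to 0.673) for RPR2 and 1.57% (1.41 to 1.73) for CRPR2, and the *Cd209a* share 10.7% (10.1 to 11.4) and 3.30% (3.07 to 3.53), log2 differences of 1.64 and -1.71. Median depth in these cells was 115 transcripts in RPR2 and 129 in CRPR2 before thinning.

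**Figure D2:**
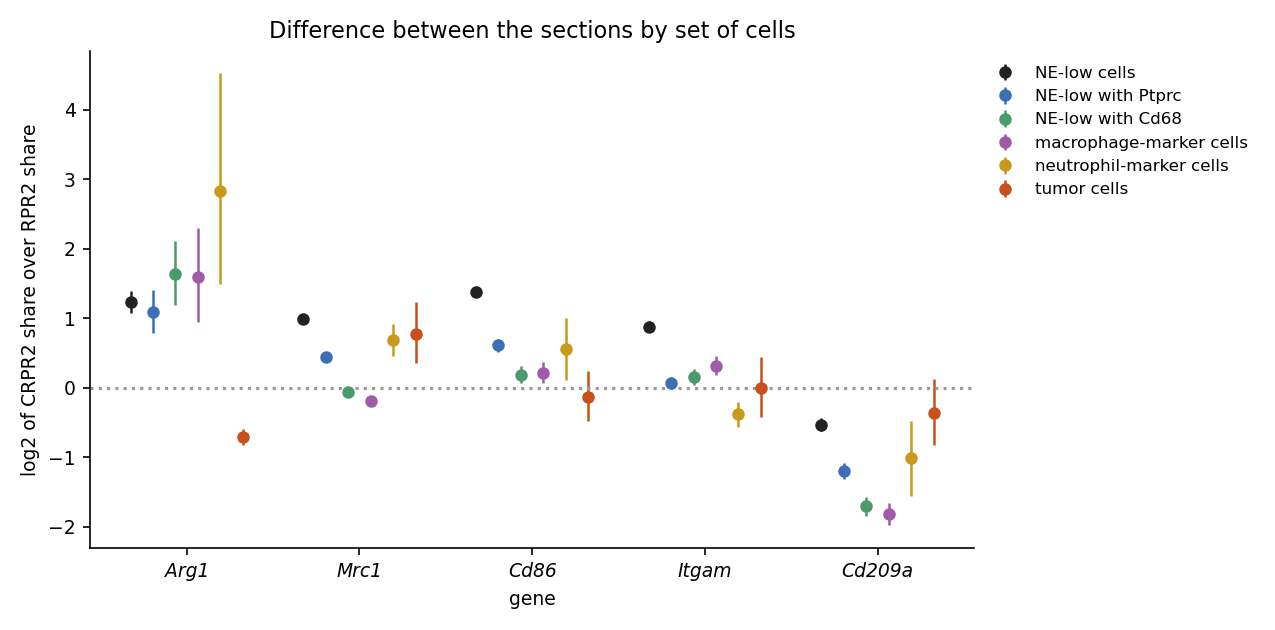
Log2 of the CRPR2 share over the RPR2 share of cells with each gene after thinning to 50 transcripts, in 6 sets of cells shown by color. Bars are 95% intervals of counting error and the dotted line marks equal shares. Arg1 is above 0 in all 5 sets outside the tumor cells and at -0.71 in tumor cells, Cd209a is below 0 in all 6, and Mrc1 lies between -0.19 and 0.99.

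Cells were also sorted into 14 classes by 3 or more transcripts of marker genes, which include none of the 5 members. Mast-marker cells, 28 in RPR2 and 47 in CRPR2, were under 50 in each section and are left out of the orders given here. Macrophage markers defined 4090 RPR2 and 10801 CRPR2 cells, and *Ptprc*, on no class's marker list, was seen in 55.7% and 60.9% of them after thinning. *Mrc1* was highest in this class, at 19884 CPM in RPR2 and 15410 in CRPR2, and the class held 55.9% and 60.6% of all *Mrc1* transcripts. The *Mrc1* share of the class was 53.3% (51.7 to 54.8) for RPR2 and 46.7% (45.8 to 47.7) for CRPR2, so within macrophage-marker cells it lay lower in CRPR2. *Cd209a* was also highest in this class among those of 50 or more cells, at 7185 against 1764 CPM and at 19.1% (17.8 to 20.3) against 5.40% (4.98 to 5.86) of cells. *Arg1* went the other way, from 116 CPM (88.4 to 150) to 606 CPM (568 to 646), and from 0.567% (0.356 to 0.858) to 1.71% (1.47 to 1.98) of cells. The RPR2 share rested on 22 of 3877 cells. Macrophage-marker cells of the CRPR2 section thus carried less *Cd209a* and *Mrc1* and more *Arg1* than those of the RPR2 section. The class also differed in its own marker *Cd68*, seen in 56.0% of RPR2 and 68.5% of CRPR2 cells. Its median depth was 118 and 137 transcripts before thinning. The part of these in the differences was not tested.

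*Itgam* was highest in 3 of the classes of 50 or more cells. In RPR2 it stood at 13778 CPM in cells with the NK markers *Prf1* and *Gzmb*, 8789 in neutrophil-marker cells and 3344 in macrophage-marker cells. In CRPR2 the same classes had 11408, 6207 and 4586 CPM. The intervals of neighbors in that order did not overlap in either section. The NK class was not compared between sections, because 3 T cell markers and 2 of its own stood among its 10 leading genes in CRPR2. In neutrophil-marker cells the *Itgam* share was 34.4% in RPR2 and 26.4% in CRPR2, a log2 difference of -0.38 (-0.56 to -0.20), at median depths of 73 and 96 transcripts. *Mrc1* was seen in 15.6% and 25.1% and *Cd68* in 17.5% and 30.7% of these same cells, so macrophage transcripts moved with that difference, and their part in it was not tested.

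*Cd86* was highest in B cell-marker cells, at 3007 CPM (2680 to 3362) in RPR2 and 5362 (4973 to 5773) in CRPR2. Macrophage-marker cells came next, with 2890 CPM (2744 to 3041) and 3209 (3121 to 3299). The intervals of B cell-marker and macrophage-marker cells overlapped in RPR2 and were apart in CRPR2. *Cd86* was also present in cells that passed no class, with 1804 and 1379 CPM, and those cells were shallow, with a median of 43 and 45 transcripts. In CRPR2 neutrophil-marker (1534 CPM), mural-marker (1475) and T cell-marker cells (1449) stood above them, and neighbors' intervals overlapped. Of all *Cd86* transcripts, mural-marker cells held 13.3% and 11.0% and fibroblast-marker cells 13.4% and 11.8%. Macrophage-marker cells held 29.7% and 34.2%, and B cell-marker cells 6.24% and 4.79%. No gene of the dendritic cell or monocyte marker lists was on the panel, so cells of those types could not be set apart. Outside the leukocyte classes, *Arg1* had 310 CPM for RPR2 and 254 CPM for CRPR2 in cells with markers of AT2 cells, the surfactant-making cells of the alveolus. In RPR2 that was the highest *Arg1* level after the tumor cells, with an interval that overlapped that of cells of no class. In CRPR2 the neutrophil-marker cells had 976 CPM (852 to 1113), above 606 in macrophage-marker cells and 587 in tumor cells, whose intervals overlapped. The *Arg1* transcripts of those neutrophil-marker cells lay in 3.98% of 2113 cells, and the interval does not cover that clustering. By thinned share the order was another, with *Arg1* in 2.29% of neutrophil-marker, 1.71% of macrophage-marker and 2.71% of tumor cells. The neutrophil-marker level of *Arg1* in RPR2 was 59.2 CPM (28.4 to 109). The neutrophil markers were *Cxcr2*, *Csf3r*, *Ly6g*, *Mmp9* and *Mmp8*, and *Mmp9* was also among the leading genes of CRPR2 macrophage-marker cells. The CRPR2 neutrophil-marker cells held macrophage transcripts, with *Mrc1* at 9020 CPM and *Cd68* seen in 30.7% of cells. The part of such mixing in their *Arg1* level was not tested.

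**Figure D3:**
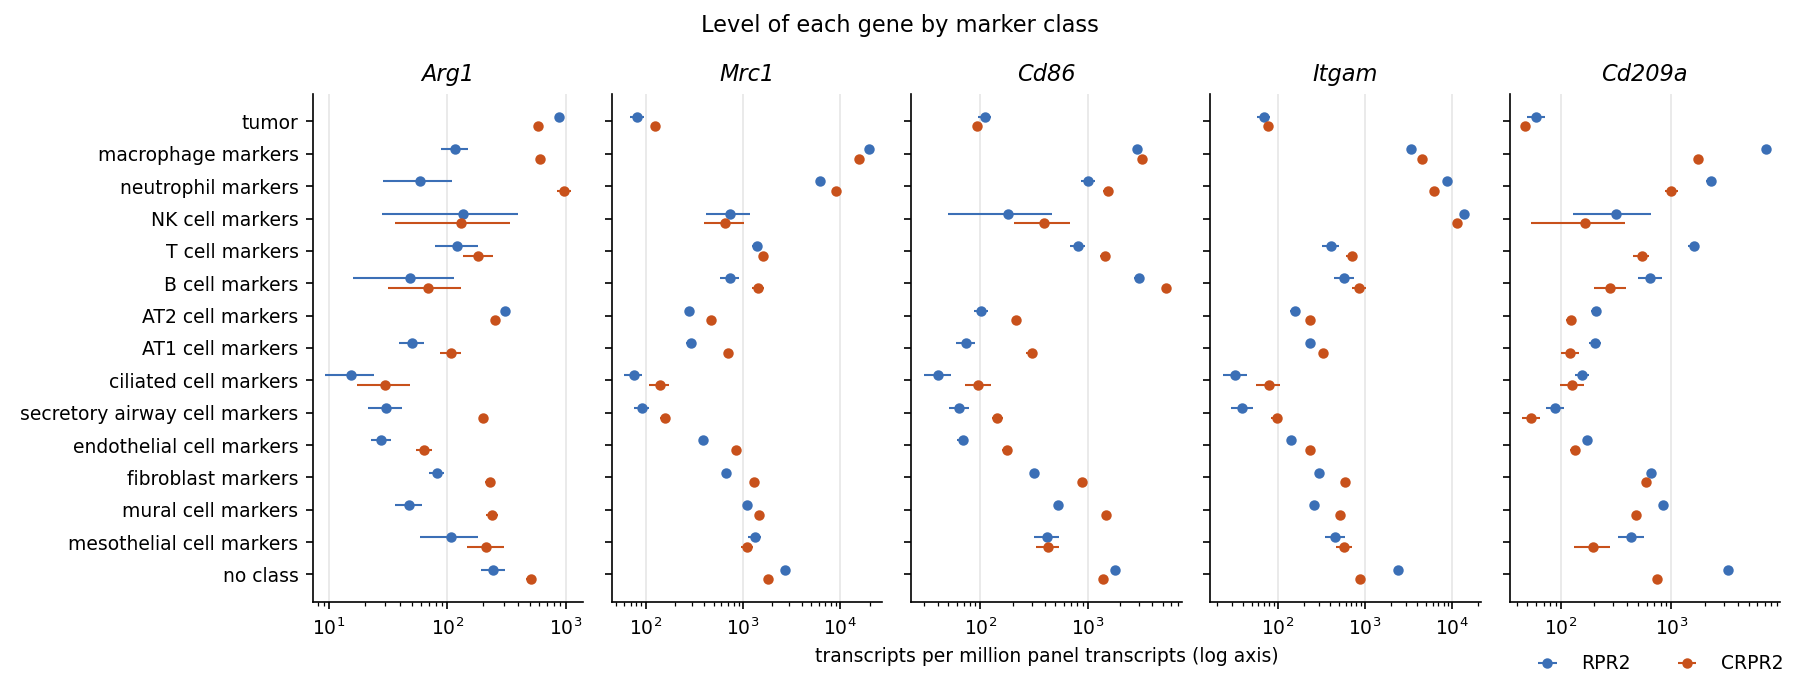
Level (CPM of panel transcripts, log axis) of each gene in tumor cells, in the marker classes of 50 or more cells and in cells of no class, for RPR2 (blue) and CRPR2 (orange). Bars are exact 95% Poisson intervals. Mrc1 and Cd209a peak in macrophage-marker cells, Itgam in NK-marker cells, Cd86 in B cell-marker cells, and Arg1 in tumor cells of RPR2 and neutrophil-marker cells of CRPR2. Those neutrophil-marker cells of CRPR2 also held Mrc1, at 9020 CPM.

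The myeloid genes other than *Arg1* occurred in the same cells more often than the product of their shares, taken here as the count if the genes were independent. In RPR2 the 6 pairs without *Arg1* lay between 5.33 times that count for *Mrc1* with *Itgam* and 9.55 times for *Cd86* with *Cd209a*. In CRPR2 they lay between 3.11 times for *Cd86* with *Cd209a* and 6.37 times for *Itgam* with *Cd209a*. Of all gene pairs with an expected count of at least 5, 9.12% reached 2-fold in RPR2 and 8.02% in CRPR2. *Mrc1* was seen in 32.3% of *Cd209a* cells in RPR2 (759 of 2348) and 33.0% in CRPR2 (517 of 1569). *Cd209a* was in turn seen in 16.05% and 5.69% of *Mrc1* cells. All 6 pairs without *Arg1* passed 2-fold in both sections.

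*Arg1* paired differently. In RPR2 its ratio was 1.26 (0.810 to 1.88) with *Mrc1*, 1.22 (0.529 to 2.41) with *Cd86*, 1.07 (0.514 to 1.97) with *Itgam* and 1.17 (0.582 to 2.09) with *Cd209a*. All 4 intervals spanned 1, and the pairs rested on 24, 8, 10 and 11 cells. In a second random draw of the transcripts all 4 ratios were below 1, at 0.754, 0.789, 0.896 and 0.782 in the same order. Without thinning the *Arg1* and *Mrc1* ratio was 1.30 (1.04 to 1.60). In CRPR2 the ratio was 1.56 (1.30 to 1.84) with *Mrc1*, 1.499 (1.14 to 1.94) with *Cd86*, 2.16 (1.72 to 2.67) with *Itgam* and 0.812 (0.420 to 1.42) with *Cd209a*. *Arg1* with *Itgam* in CRPR2 stood on 84 cells. It was 1.87 on 74 cells in the second draw and 1.98 with thinning to 100 transcripts, so whether it passed 2-fold depended on the draw and the depth.

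The excess of pairs was far smaller once cells were limited to those with *Cd68* before thinning or to macrophage-marker cells. A ratio cannot exceed the inverse of the larger share of the pair, so its upper limit is lower where a gene is common. *Mrc1* was seen in 53.3% (RPR2) and 46.7% (CRPR2) of macrophage-marker cells and 27.5% and 26.3% of *Cd68* cells. In all NE-low cells it was seen in 3.88% and 7.69%. The part of these shares in the smaller ratios was not tested. In NE-low cells with *Cd68*, the *Mrc1* and *Cd86* ratio was 1.25 (1.11 to 1.41) for RPR2 and 1.22 (1.13 to 1.31) for CRPR2. In macrophage-marker cells it was 1.00 (0.884 to 1.13) and 0.930 (0.860 to 1.004). There *Cd86* was seen in 12.4% of *Mrc1* cells and 12.4% of all cells of the class in RPR2. In CRPR2 it was seen in 13.4% of *Mrc1* cells against 14.4% of the class. Poisson intervals of pair counts do not use the shares of the 2 genes, so they can be too wide where a gene is common. *Itgam* and *Cd209a* had the highest ratio of the 6 pairs without *Arg1* in that class, at 1.72 (1.48 to 1.99) and 1.82 (1.57 to 2.10). Pairs with *Mrc1* had a lower upper limit there than this pair, so the order depends in part on the shares. *Itgam* was seen in 25.2% of *Cd209a* cells of the class in RPR2 and 33.1% in CRPR2, against 14.6% and 18.2% of all its cells. *Arg1* and *Itgam* in CRPR2 stood at 1.47 (1.09 to 1.95) in that class.

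**Figure D4:**
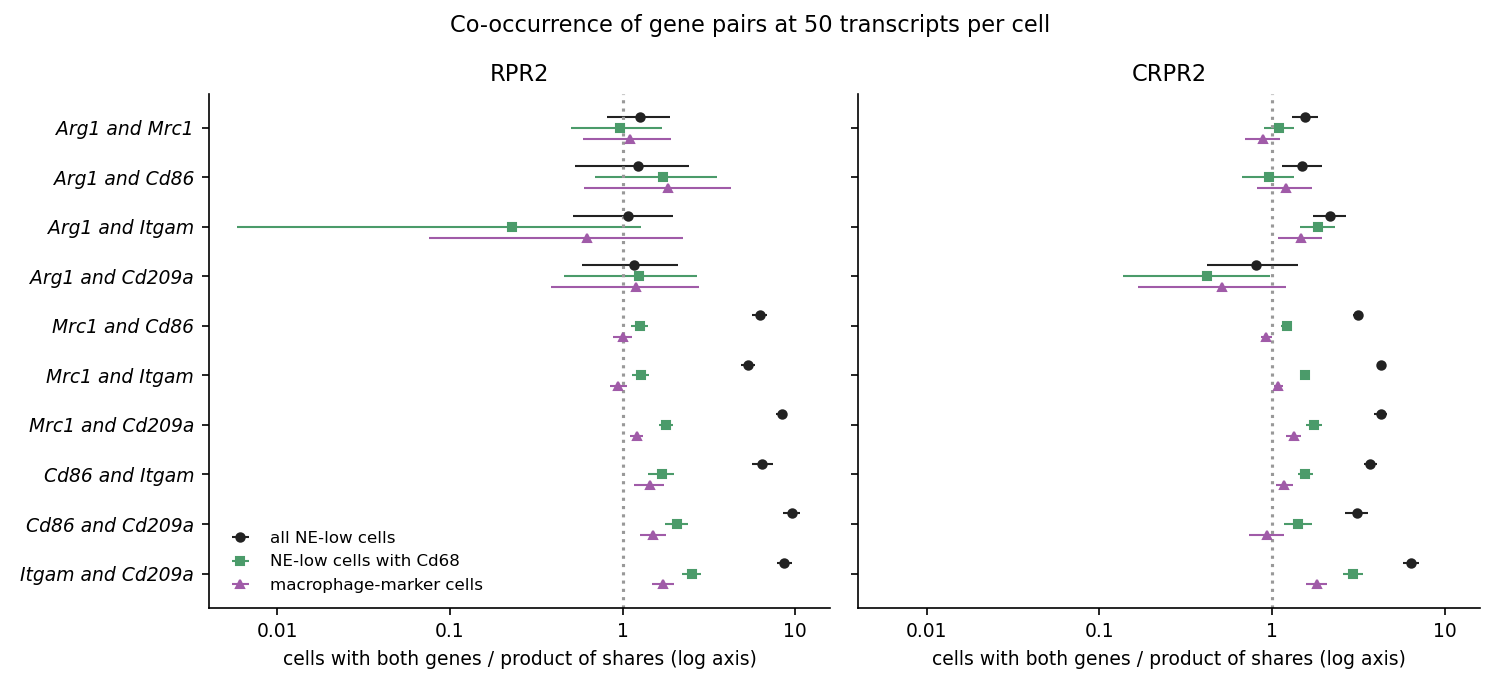
Number of cells with both genes of a pair over the product of their shares (log axis) after thinning to 50 transcripts, for RPR2 (left) and CRPR2 (right). Circles are all NE-low cells, squares NE-low cells with Cd68 before thinning, triangles macrophage-marker cells, and bars are exact 95% Poisson intervals. The 6 lower pairs lie between 3.11 and 9.55 in all NE-low cells and near 1 to 2 in macrophage-marker cells, whereas the Arg1 pairs lie near 1 in RPR2. The upper limit of a ratio is lower in sets of cells where a gene is common.

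At least 1 member was seen in 9403 RPR2 (7.71%) and 16318 CRPR2 (13.8%) NE-low cells after thinning. Of these, 18.0% (17.2 to 18.8) in RPR2 and 19.5% (18.9 to 20.2) in CRPR2 held 2 or more members. Cells with 3 or more were 4.08% and 2.88% of member-positive cells, and cells with 4 were 37 in RPR2 and 29 in CRPR2. The count of cells with all 5 was 0 in both, before thinning as well. *Mrc1* alone was the most frequent state, with 36.8% of member-positive cells in RPR2 and 40.1% in CRPR2. *Cd86* alone made up 10.3% and 16.5%, *Itgam* alone 16.8% and 13.7%, *Cd209a* alone 13.3% and 4.73%, and *Arg1* alone 4.75% and 5.47%. Of the 490 RPR2 and 1112 CRPR2 cells with *Arg1*, 447 and 893 held no other member. In tumor cells, 15 of 857 member-positive cells in RPR2 and 265 of 7627 in CRPR2 held 2 or more members, 1.75% and 3.47%.

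The genes whose share rose most in NE-low cells with a member, against cells without it, overlapped in part between members. They were ranked by the mean log2 ratio of both sections. For *Mrc1* they were *Folr2*, *Ccl12*, *Trim29*, *Ltc4s* and *Krt79*. *Folr2*, a folate receptor of resident macrophages, was seen in 13.02% of RPR2 and 9.11% of CRPR2 cells with *Mrc1*, against 0.442% and 0.657% of cells without. For *Cd209a* they were *Folr2*, *F13a1*, *Mmp9*, *Ccl12* and *Ifitm6*. *F13a1*, the coagulation factor XIII A subunit made by macrophages, was seen in 33.1% and 34.5% of *Cd209a* cells against 2.04% and 2.91% of the rest. *Mrc1* and *Cd209a* thus shared *Folr2* and *Ccl12* among their leading genes. *Ccl12* was also a leading gene of *Cd86*, and *Ifitm6* of *Itgam*. The log2 ratio of *Folr2* in RPR2 and CRPR2 was 3.39 and 3.09 beside *Itgam*, and 3.54 and 1.79 beside *Cd86*. Beside *Arg1* in CRPR2 it was -0.40. *F13a1* was seen in 22.2% and 18.6% of *Itgam* cells against 2.26% and 2.78% of the rest.

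For *Itgam* the leading genes were *Cxcr2*, *Ifitm6*, *Mrgpra2a*, *Apoc2* and *Csf3r*. *Csf3r*, the receptor for granulocyte colony-stimulating factor, was seen in 29.2% and 19.1% of *Itgam* cells against 1.48% and 2.04% of the rest. *Cxcr2*, a chemokine receptor of neutrophils, was seen in 16.1% and 7.57% against 0.510% and 0.619%. *Ly6g*, also a neutrophil marker, went the other way, in 3.62% and 3.89% of *Itgam* cells against 4.66% and 5.35%. *Csf3r* was also more frequent beside *Mrc1*, *Cd86* and *Cd209a*, in 10.4% and 11.1% of *Mrc1* cells against 1.67% and 1.93%. For *Cd86* they were *Dnase1l3*, *Havcr2*, *Gatm*, *Ccl12* and *Cd80*. *Havcr2*, which encodes TIM-3, was seen in 22.5% and 23.3% of *Cd86* cells against 1.11% and 2.84%, and *Cd80*, the other ligand of CD28, in 10.4% and 14.4% against 0.910% and 2.18%. Genes at least 2-fold more frequent beside a member made up 21.3% to 23.7% of those eligible in RPR2 for these 4 members, and 13.5% to 16.8% in CRPR2.

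For *Arg1* that share was 8.16% in RPR2 and 7.59% in CRPR2, and its leading genes were *Ctse*, *Mlc1*, *Ptn*, *Rac2* and *S100a4*. Those were ranked among the 170 genes found with *Arg1* in at least 20 cells of each section, against 312 for *Mrc1*. *F13a1* (18 RPR2 cells), *Folr2* (9) and *Csf3r* (6) fell short of that. In CRPR2 alone the log2 ratio beside *Arg1* was 1.47 for *Csf3r*, 1.07 for *F13a1* and -0.40 for *Folr2*, against 1.07 for *Ctse*. *Ctse*, which encodes the protease cathepsin E, was seen in 10.0% and 10.5% of *Arg1* cells against 2.88% and 4.999% of the rest. *Rac2*, a GTPase of blood cells, was seen in 14.5% and 21.9% against 6.00% and 10.8%. *Lamp3*, an AT2 marker, was seen in 41.4% of RPR2 cells with *Arg1* against 14.2% without it, and in 24.8% against 20.1% in CRPR2. *Sftpd*, also an AT2 marker, was seen in 49.6% against 29.0% in RPR2, but in 36.4% against 37.1% in CRPR2. *Cd68* was seen in 5.31% against 4.25% in RPR2 and in 21.9% against 11.9% in CRPR2. In CRPR2 other cells' genes also stood higher in *Arg1* cells, with *Insm1* in 8.36% against 4.05% and *Scg3* in 6.47% against 3.44%. Neutrophil markers differed among themselves there. *Csf3r* was seen in 7.19% against 2.60%, *Cxcr2* in 1.17% against 0.860% and *Ly6g* in 5.22% against 5.30%. In RPR2 *Csf3r* was less frequent beside *Arg1*, in 1.22% against 2.01%, as was *Cxcr2*, in 0.204% against 0.809%. The part of these genes in the *Arg1* values was not tested.

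Cells with 5 or more transcripts of a member before thinning were counted last. For *Arg1* there were 2 such NE-low cells in RPR2 and 93 in CRPR2, where the highest cell held 20 transcripts. Of the 93, 54 had macrophage markers (58.1%), 12 neutrophil markers and 12 mural markers. *Apoc2*, an apolipoprotein, led the genes of those cells with 6535 CPM against 233 CPM in all NE-low cells, *Mmp8*, a neutrophil collagenase, had 5018 against 437, and *Itgam* had 7585 against 901. In tumor cells, 0 in RPR2 and 41 of 203040 in CRPR2 reached 5 *Arg1* transcripts, so tumor cells with *Arg1* mostly held 1, with a mean of 1.15 and 1.16 per positive cell. For *Mrc1*, 879 RPR2 and 1920 CRPR2 NE-low cells reached 5 transcripts, of which 85.7% and 87.4% had macrophage markers. For *Cd86*, 35.9% of 78 such cells in RPR2 and 32.3% of 201 in CRPR2 had macrophage markers, and 19.2% and 20.9% mural markers. For *Itgam*, 13.6% of 88 such cells in RPR2 and 82.3% of 265 in CRPR2 had macrophage markers. The leading genes of the 88 RPR2 cells were *Cd5l*, *Prf1*, *Ctla4*, *Gzmb* and *Klra8*. Of these, *Prf1*, *Gzmb* and *Klra8* are genes of cytotoxic lymphocytes, but 8 of the 88 cells (9.09%) had NK markers. Another 22 had no class, 12 had macrophage markers and 11 neutrophil markers. The leading genes of the 265 CRPR2 cells were *Apoc2*, *Cd209a* and *Ccl9*. *Itgam*-high cells were thus mostly outside the macrophage markers in RPR2 and mostly within them in CRPR2.

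Other genes tied to myeloid state were read from a list of 34, of which 11 were on the panel. By NE-low CPM, 4 of the 11 were at least 2-fold higher in CRPR2 and 0 at least 2-fold lower, with a median log2 difference of 0.81 against 0.26 over all 429 genes. Over all 429 genes 25.2% were at least 2-fold higher and 6.06% at least 2-fold lower, and 4 of 11 is to be read against that. The 4 were *Cd68* (1.86), *Retnla* (1.65), *Cd80* (1.40) and *Havcr2* (1.37). *Retnla*, a secreted resistin-like protein used as a mark of alternative activation, had 1087 CPM in RPR2 and 3414 CPM in CRPR2. It was seen in 11.2% of *Mrc1* cells against 2.62% of other NE-low cells in RPR2, but in 7.06% against 9.85% in CRPR2. In CRPR2 *Retnla* was also less frequent beside *Arg1*, *Cd86* (7.08% against 9.72%) and *Itgam* (7.54% against 9.71%). Beside *Cd209a* it was more frequent, in 17.1% against 9.53%. Tumor cells had 290 CPM of *Retnla* in RPR2 and 935 CPM in CRPR2. *Hif1a*, the hypoxia-inducible factor, differed by 0.96, and *Vegfa*, a target of that factor, by -0.22. *Folr2* (0.56) and *F13a1* (0.37) stayed within 2-fold, as did *Ly6g* (0.17) and *Ly6c1* (-0.20). *Ly6c1*, also on the endothelial marker list, and *Vegfa* were less frequent beside each member in both sections.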

How the data were processed

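Xenium In Situ transcript counts were read for 1 RPR2 and 1 CRPR2 section. The values deposited by the authors were raw transcript counts per gene and segmented cell. The instrument software and segmentation were the authors'. Genome build is not given in the sources used here, and the submitters' processing notes name Seurat 4.4.0. Sections held 16313950 (RPR2) and 37348565 (CRPR2) transcripts in 154818 and 342845 cells. Cells under 20 transcripts (1903 and 2236) were left out, and no doublet caller was run.

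Counts were summed to CPM or thinned to 50 transcripts per cell with a fixed seed in Python (version 3.11.15), with numpy at 2.4.6 and scipy at 1.17.1, and the steps were tested on simulated data. Shares have Clopper-Pearson intervals, CPM and pair counts Poisson intervals, and ratios conditional binomial intervals. Intervals of CPM and of CPM ratios treat transcripts as independent, although a cell can hold several, so they can be too narrow. Interval level was 95%. A class took a cell with 3 or more transcripts of its markers, and where several qualified the highest Pearson residual decided. That rule was set after the files were seen. Named genes were the 5 with the highest mean log2 ratio of shares over both sections among genes found with the member in at least 20 cells in each, plus the myeloid state list and class markers. Leading genes of cells with 5 or more transcripts, *Insm1*, *Scg3* and the other neuroendocrine genes outside the gate were chosen after their values were seen. Members and lists were chosen with earlier results of these data known. Other limits, depths and cell sets were run as alternatives. Each genotype had 1 section, so no p-value was computed.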

Additional observations from a re-analysis of the deposited data

Results flagged for a closer look

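The co-occurrence of *Arg1* and *Cd209a* in NE-low cells lay on opposite sides of the product of their shares in the 2 sections, at 1.17 times in RPR2 (0.582 to 2.09, 11 cells) and 0.812 times in CRPR2 (0.420 to 1.42, 12 cells). In a second random draw, added after seeing the data, both ratios were below 1, at 0.782 (7 cells) and 0.822 (12 cells). Both intervals above include 1, and the difference was not tested, since each genotype had 1 section.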

How the results depend on the processing

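Every result is a value with no test, because each genotype had 1 section, and is called moved here where the alternative left the interval of counting error of the value given above. No paired analysis was possible because the labels give 1 section per genotype and no shared replicate numbers. Leaving out a replicate was not possible for the same reason. Of 138 values under the main set of alternatives 73 moved, 64 did not and 1 reversed, and of 40 under those added after seeing the data 14 moved, 25 did not and 1 reversed.

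With thinning to 30 transcripts the log2 difference in share was 1.63 for *Arg1*, 0.91 for *Mrc1*, 1.24 for *Cd86*, 0.72 for *Itgam* and -0.66 for *Cd209a*. With thinning to 100 transcripts the log2 difference in share was 1.05 for *Arg1*, 1.15 for *Mrc1*, 1.54 for *Cd86*, 1.38 for *Itgam* and -0.37 for *Cd209a*. With an NE-low limit of 0 the log2 difference in share was 1.04 for *Arg1*, 1.12 for *Mrc1*, 1.47 for *Cd86*, 0.98 for *Itgam* and -0.40 for *Cd209a*. With an NE-low limit of 4 the log2 difference in share was 1.49 for *Arg1*, 0.56 for *Mrc1*, 1.00 for *Cd86*, 0.47 for *Itgam* and -0.92 for *Cd209a*. With at least 2 transcripts without thinning the log2 difference in share was 2.35 for *Arg1*, 1.09 for *Mrc1* and 1.07 for *Itgam*. With macrophage-marker cells (added) the log2 difference in share was 1.59 for *Arg1*, -0.19 for *Mrc1*, 0.21 for *Cd86*, 0.32 for *Itgam* and -1.82 for *Cd209a*. With 0 transcripts over the 5 genes and *Insm1*, *Scg2*, *Scg3* and *Gria2* (added) the log2 difference in share was 1.005 for *Arg1*, 1.16 for *Mrc1*, 1.53 for *Cd86*, 1.01 for *Itgam* and -0.34 for *Cd209a*. With cells that had *Ptprc* before thinning (added) the log2 difference in share was 0.44 for *Mrc1*, 0.61 for *Cd86*, 0.070 for *Itgam* and -1.20 for *Cd209a*. The reversal was that of *Mrc1* in macrophage-marker cells. In the other settings of this paragraph no section difference of a member changed direction. In other cell sets some differences were negative, against positive ones in NE-low cells. *Itgam* stood at -0.38 (-0.56 to -0.20) in neutrophil-marker cells and *Arg1* at -0.71 (-0.82 to -0.59) in tumor cells. The interval spanned 0 for *Mrc1* in *Cd68* cells, at -0.06 (-0.13 to 0.004). It also spanned 0 in tumor cells for *Cd86*, at -0.13 (-0.49 to 0.24), and *Itgam*, at -0.002 (-0.42 to 0.45). *Mrc1* in tumor cells stood at 0.78 (0.35 to 1.24).

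With tumor cells limited to 5 or more neuroendocrine transcripts the NE-low over tumor log2 difference was -1.32 for *Arg1* in CRPR2, 4.46 for *Mrc1* in RPR2, 4.89 for *Mrc1* in CRPR2, 1.93 for *Cd86* in RPR2, 3.75 for *Cd86* in CRPR2, 3.29 for *Itgam* in RPR2, 4.09 for *Itgam* in CRPR2 and 3.30 for *Cd209a* in CRPR2. With an NE-low limit of 0 the NE-low over tumor log2 difference was -1.36 for *Arg1* in CRPR2, 4.41 for *Mrc1* in CRPR2, 3.26 for *Cd86* in CRPR2, 3.62 for *Itgam* in CRPR2 and 3.32 for *Cd209a* in CRPR2.

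The share of member-positive cells with 2 or more members was 13.9% and 13.4% with thinning to 30, 21.9% and 28.6% with thinning to 100 and 21.6% and 29.5% with no thinning in RPR2 and CRPR2, so its size depends on the depth used. Among pairs, *Arg1* with *Cd86* in CRPR2 fell to -0.053 (log2 ratio) in *Cd68* cells, on the other side of 0. At these depths cells with a low level of a gene are mostly counted as lacking it.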
